A study of Mus musculus with 26 samples.

Results

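The genes described here encode the collagen chains that build basement membranes and related networks rather than the thick fibrils of connective tissue. They were listed by name and collagen type, a rule that uses no measured value although earlier results of these data were known, and comprise *Col4a1*, *Col4a2*, *Col4a5*, *Col4a6*, *Col8a1*, *Col8a2*, *Col15a1*, *Col18a1*, *Col7a1*, and *Col17a1*. All 10 were found among the 52962 gene IDs of the count table. Of these 10 members, 9 passed the filter on low counts that 15402 IDs passed (more than 0.5 CPM, the count scaled to the library total, in at least 4 libraries), and *Col15a1* did not.

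Polyadenylated RNA was sequenced from 26 libraries of mouse brown preadipocytes, the precursor cells of brown fat, in 9 groups. The cells came from newborn mice with floxed insulin receptor (IR) and insulin-like growth factor 1 receptor (IGF1R) genes and were immortalized with SV40 T antigen. Both receptor genes were then inactivated with Cre delivered by adenovirus, and all 5 lines share this deletion. The study asked which effects of IR need insulin, the kinase, or parts of the intracellular domain. DKO cells carry no receptor, and the 4 other lines are DKO cells stably given a FLAG-tagged human receptor (B isoform) by retrovirus. The methods also list DKO cells given the empty vector, and selection with hygromycin. They do not say whether the sequenced DKO cells carried this vector. IR cells carry the full-length receptor, and K1030R cells a kinase-dead point mutant of it. ∆CT cells carry a receptor cut short at its C-terminal tail, and JMO cells one that keeps only the juxtamembrane stretch of its intracellular domain. All cells were starved of serum for 6 h. Each of the 4 receptor lines was sequenced unstimulated (basal) and after 15 min with 100 nM insulin, and DKO cells only in the basal state. There were 3 libraries per group and 2 for ∆CT with insulin. Only 1 line was made per receptor and nothing states that libraries came from separately made lines, so p-values measure the spread between these samples, which may be technical, and a receptor cannot be told apart from the line that carries it.

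Type IV collagen is the sheet-forming collagen of basement membranes, where its network is laid over a network of laminin and tied to it by nidogen and perlecan. Its genes lie in head-to-head pairs, and the chains of *Col4a1* and *Col4a2* assemble together in nearly every tissue, whereas those of *Col4a5* and *Col4a6* assemble in a more restricted set, such as smooth muscle and skin. In fat, each mature adipocyte is wrapped in its own basement membrane, while its precursors lie in the loose matrix around vessels. Type VIII is a short-chain collagen that forms open lattices, types XV and XVIII are proteoglycans at the border of basement membrane and stroma, and types VII and XVII anchor epithelia to the tissue beneath.

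Library totals ran from 17228982 to 24694828 counts, and the biological coefficient of variation between libraries of a group was 4.44%. *Insr* had 23.8 ± 1.32 CPM (SD, n = 3) in DKO cells and group means from 67.7 to 98.1 CPM in the receptor lines. Reads were assigned to mouse transcripts, and how far the human transgenes are counted there, or transcripts of the inactivated mouse gene in DKO cells, was not tested. The libraries held the preadipocyte markers *Pdgfra* (158 to 293 CPM) and *Pdgfrb* (533 to 639 CPM). *Dlk1*, another preadipocyte marker, and *Ebf2*, a brown fat precursor marker, did not pass the filter. The mature fat cell genes *Ucp1*, *Adipoq*, and *Cidea* had no counts in 25, 23, and 21 of the 26 libraries. Of 5 such markers only *Fabp4* passed the filter (0.444 to 4.76 CPM), and their sum was 2.50 to 2.60 CPM in DKO, 0.598 to 1.09 in basal IR, 0.829 to 2.01 in basal K1030R, 0.948 to 1.05 in basal ∆CT, and 4.29 to 4.88 in basal JMO libraries. The part of such cells in the results was not tested. In such bulk RNA, fewer cells of a type and less RNA per cell cannot be told apart. Below, a difference is called at a Benjamini-Hochberg adjusted p under 0.05 over all 15402 tested genes in the quasi-likelihood test of edgeR, from which all adjusted p below come.

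The starts of the type IV pairs are shown first because the members of each pair are the closest neighbors on their chromosomes. On GRCm38, *Col4a1* (ENSMUSG00000031502) lies on the minus strand at chr8:11198423-11312826 and *Col4a2* (ENSMUSG00000031503) on the plus strand at chr8:11312805-11449287, so that their first exons overlap by 22 bases. The window below (RefSeq, GRCm38.p6, plus strand, chr8:11312801-11312830) shows these shared bases in capitals.
Shared start of Col4a1 and Col4a2: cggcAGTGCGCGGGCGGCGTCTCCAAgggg

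*Col4a6* (ENSMUSG00000031273, chrX:141165403-141474076, minus strand) and *Col4a5* (ENSMUSG00000031274, chrX:141475385-141689234, plus strand) also run away from each other, but 1308 bases lie between their starts. The bases before each start are shown on the strand of the gene, with 1 match each in capitals. In the *Col4a6* window (chrX:141474077-141474326, minus strand) the capitals mark GGGCGG on the opposite strand, whose match begins 21 bases before the start. In the *Col4a5* window (chrX:141475169-141475384, plus strand) they mark CCAAT.
Upstream of Col4a6: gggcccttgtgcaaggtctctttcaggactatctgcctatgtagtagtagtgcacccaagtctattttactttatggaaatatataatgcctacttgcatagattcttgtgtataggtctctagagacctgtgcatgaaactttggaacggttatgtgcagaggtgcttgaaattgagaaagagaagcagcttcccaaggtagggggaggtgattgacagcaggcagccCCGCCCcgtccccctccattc
Upstream of Col4a5: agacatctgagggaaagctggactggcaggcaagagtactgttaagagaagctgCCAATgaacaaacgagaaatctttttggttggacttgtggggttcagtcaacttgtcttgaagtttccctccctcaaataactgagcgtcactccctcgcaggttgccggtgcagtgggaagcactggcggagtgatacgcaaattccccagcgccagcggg

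The 2 pairs differ in base composition at their starts. In the 250 bases before the RefSeq start, GC content was 74.4% for *Col4a1* and 73.6% for *Col4a2*, against 47.6% for *Col4a6* and 54.0% for *Col4a5* and a median of 52.4% over 32851 mouse promoters. All 250 bases of the *Col4a1* window were exon of *Col4a2*, and all those of the *Col4a2* window exon of *Col4a1*. The *Col4a6* window held 0 exon bases, so the windows of the 2 pairs are not alike in this respect. Both strands of these windows were searched for 4 motifs that do not contain each other. The CCAAT box is held by 33.8% of all promoters, the GC box GGGCGG by 32.7%, the TATA box TATAAA by 12.4%, and the AP-1 motif TGANTCA by 6.75%. Of the type IV genes, CCAAT stood before the RefSeq starts of *Col4a1*, *Col4a2*, and *Col4a5*, and GGGCGG before those of *Col4a2*, *Col4a5*, and *Col4a6*. The RefSeq start of *Col4a5* (chrX:141475419) lies inside the gene as placed above, and 34 bases of its window are exon of *Col4a5*. Its GGGCGG match begins 30 bases before the RefSeq start, within this exon, and so is not in the sequence shown above. Among the 10 members TATAAA was found only for *Col17a1* and TGANTCA for none, which says only that these letters are not in these windows.

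*Col4a6* needs a caution before its values. A second record of the table, ENSMUSG00000116510, which carried no symbol in the annotation used here, held exactly the count of *Col4a6* in all 26 libraries, and 13 of these counts were not whole. The counts deposited for *Col4a6* are thus 1 of 2 identical records, and levels are given below both for the single record and for the sum. Fold changes and calls of *Col4a6* were the same either way. Of the 15402 tested records, 331 had such an identical record.

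Per kilobase of the longest coding transcript, the scale on which levels of different genes can be compared, *Col8a1* was the most abundant member with a median of 121 CPM per kb over 26 libraries. *Col4a5* followed with 65.4, and *Col4a1*, *Col4a2*, and *Col4a6* with both records summed had 26.3, 24.0, and 26.4 CPM per kb. These medians pool lines that differ, and in DKO libraries *Col4a1* was above *Col4a5* (43.4 to 47.5 against 37.8 to 39.7 CPM per kb). *Col7a1* had 14.3 and *Col18a1* 2.64 CPM per kb. *Col8a2* and *Col17a1* were at the edge of detection, with 0.367 and 0.217 CPM per kb, and *Col15a1* was not expressed at a detectable level (0.0184 CPM per kb). The preadipocytes thus held transcripts of all 4 type IV members, and *Col8a1* was above each of these members taken singly.

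**Figure D1:**
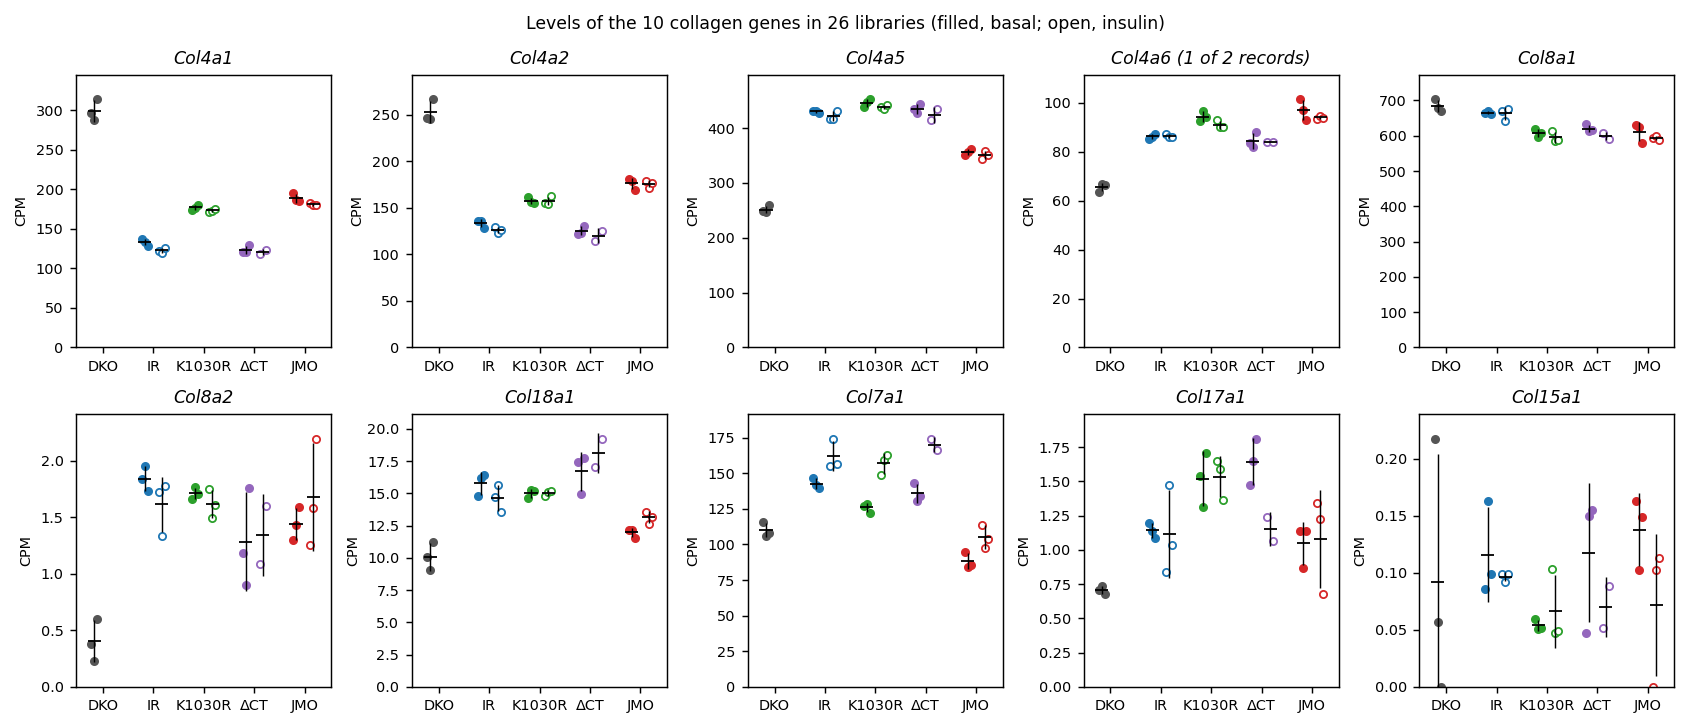
Levels of the 10 members in every library (CPM on linear axes that start at 0, 1 panel per gene), with filled (basal) and open (insulin) points for libraries, short horizontal lines for group means, and vertical lines for SD over 3 libraries (2 for ∆CT with insulin). *Col4a1* and *Col4a2* were highest in DKO cells, *Col4a5*, *Col4a6*, *Col8a2*, and *Col18a1* lowest in them, and *Col15a1* stayed at or below 0.217 CPM; *Col4a6* is drawn as 1 of its 2 records.

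Against DKO cells, the receptor lines had less of the *Col4a1* and *Col4a2* transcripts and more of *Col4a5* and *Col4a6*. Of the 9 tested members, 6 were higher and 2 lower in IR cells than in DKO cells, where 25.6% of all tested genes were higher and 24.1% lower. In K1030R cells 6 were higher and 3 lower (21.2% and 20.4% of all tested genes), and in ∆CT cells likewise 6 and 3 (23.4% and 22.9%). In JMO cells 4 were higher and 4 lower (16.9% and 17.4%). The median log2 fold change over the 9 members was 0.39 in IR, 0.53 in K1030R, 0.36 in the ∆CT line, and 0.24 in JMO cells, beside medians between 0.0075 and 0.014 over all tested genes. The 4 comparisons share the DKO libraries.

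*Col4a1*, whose chain is the main partner of *Col4a2* in basement membranes, had 296, 287, and 314 CPM in the DKO libraries. It had 137, 134, and 129 CPM in IR, 174, 176, and 180.3 in K1030R, 121, 121, and 129 in ∆CT, and 195, 186, and 185 in JMO libraries. Every DKO library was above every library of the 4 receptor lines, and the JMO libraries were above all those of the other 3. The log2 fold change against DKO was -1.17 ± 0.035 (SE) in IR cells (adjusted p = 1.46e-24), -0.76 ± 0.035 in K1030R cells, -1.28 ± 0.035 in ∆CT cells, and -0.66 ± 0.034 in JMO (adjusted p = 6.02e-17 for JMO, edgeR).

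*Col4a2* moved with it. It had 246, 245, and 266 CPM in DKO libraries, against 135, 136, and 129 in IR and 161, 156, and 155 in K1030R. In ∆CT libraries it had 122, 123, and 131 CPM, and in JMO libraries 181, 178, and 169. The order of the 5 lines was that of *Col4a1*, with DKO, JMO, and K1030R above IR and ∆CT, and IR and ∆CT overlapped. In the fit, the log2 fold changes against DKO were -0.92 ± 0.039 in IR, -0.68 ± 0.038 in K1030R, -1.01 ± 0.039 in the ∆CT line, and -0.52 ± 0.038 in JMO cells, and all 4 were called. *Col4a1* and *Col4a2* correlated with r = 0.99 over the 26 libraries, which share 5 lines and is a description only. Because the genes overlap at their first exons and *Col4a2* also shares exon bases with the antisense gene *Gm15419*, reads in those bases could have been split by the authors' counting, although the libraries were stranded.

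Smooth muscle cells and pericytes, which hold much type IV collagen, were checked beside these values. Of 5 markers 3 passed the filter. The summed markers ran from 564 to 576 CPM in DKO, 499 to 543 in IR, 678 to 709.7 in K1030R, 422 to 455 in the ∆CT line, and 639 to 659 in JMO basal libraries. The sums in DKO cells lay between those of the receptor lines. Among the receptor lines, K1030R and JMO cells were above IR and ∆CT cells on this sum as on *Col4a1* and *Col4a2*. Over the 26 libraries *Acta2* had 303 to 592 CPM, *Cspg4* 72.7 to 130.1, and *Rgs5* 1.31 to 5.93, while *Myh11* and *Cnn1*, which did not pass the filter, reached 0.640 and 0.561 CPM. Of 6 endothelial markers only *Pecam1* passed the filter, and sums of 7.15 to 17.7 CPM overlapped between lines. The part of either cell type in the result was not tested.

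*Col4a5*, the chain altered in X-linked Alport syndrome, went the other way. It had 248, 247, and 259 CPM in DKO libraries, 432, 431, and 427 in IR, and 439, 448, and 452 in K1030R. In ∆CT libraries it had 434, 427, and 444 CPM, and in JMO libraries 351, 357, and 362. DKO libraries were the lowest, JMO libraries lay between, and the IR, K1030R, and ∆CT libraries were the highest. The log2 fold change against DKO was 0.77 ± 0.029 in IR, 0.83 ± 0.029 in K1030R, 0.79 ± 0.029 in the ∆CT line, and 0.50 ± 0.029 in JMO cells (adjusted p = 1.19e-15 for JMO, the largest of the 4, edgeR).

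*Col4a6*, which partners with *Col4a5*, rose as well, but not with the same order of lines. The single record had 63.6, 66.7, and 66.3 CPM in DKO libraries, 85.3, 86.1, and 87.2 in IR, and 92.4, 96.6, and 94.1 in K1030R. It had 83.4, 81.8, and 88.2 CPM in ∆CT and 101, 97.0, and 93.1 in JMO libraries. With both records summed, means were 131 ± 3.42 CPM (SD, n = 3) in DKO, 172 ± 1.94 in IR, 189 ± 4.31 in K1030R, 169 ± 6.64 in the ∆CT line, and 194 ± 8.30 in JMO cells. Here JMO and K1030R cells, whose libraries overlapped, had the most. Log2 fold changes against DKO were 0.39 ± 0.036, 0.53 ± 0.036, 0.36 ± 0.036, and 0.57 ± 0.035 in IR, K1030R, ∆CT, and JMO cells, and all 4 were called. Over the 26 libraries *Col4a6* correlated with *Col4a5* at r = 0.66, lower than the r of *Col4a1* with *Col4a2*, and *Col4a1* with *Col4a5* at r = -0.83, again as descriptions over 5 lines.

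**Figure D2:**
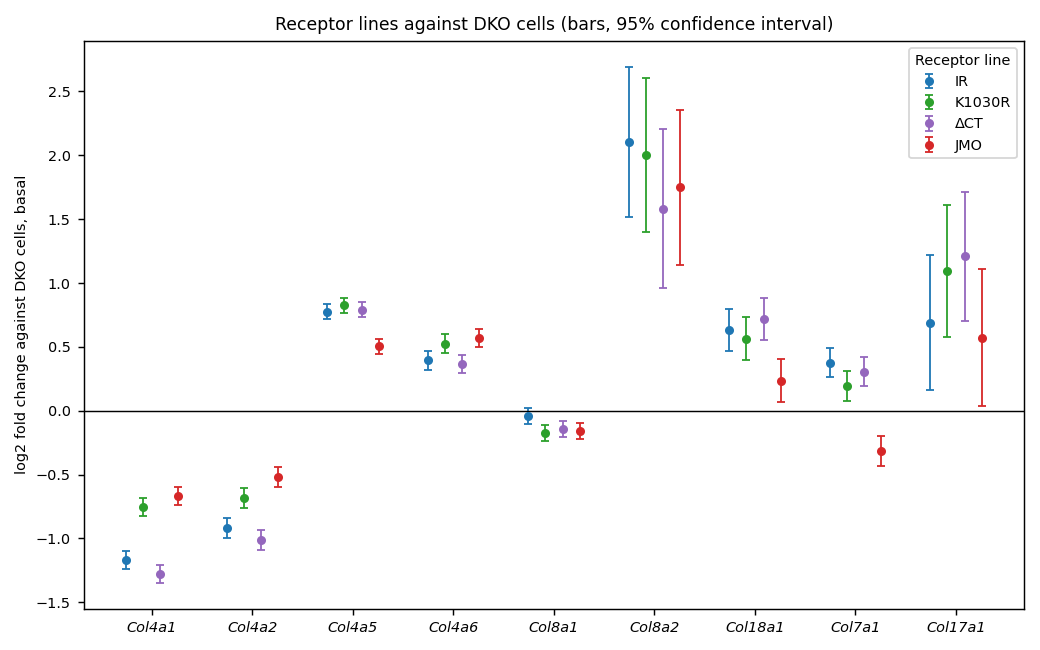
Log2 fold change of the 9 tested members in basal IR, K1030R, ∆CT, and JMO cells against DKO cells (points, edgeR fit) with unadjusted 95% confidence intervals (lines). *Col4a1* and *Col4a2* lie below 0 and *Col4a5*, *Col4a6*, *Col8a2*, *Col18a1*, and *Col17a1* above 0 in all 4 lines, although *Col17a1* was not called in JMO cells. *Col8a1* lies slightly below 0 in all 4 lines, with an interval that includes 0 in IR cells. *Col7a1* lies above 0 in IR, K1030R, and ∆CT cells and below 0 in JMO cells.

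The balance of the type IV transcripts therefore differed between DKO cells and the receptor lines. Per kilobase, the ratio of *Col4a5* plus *Col4a6* (both records) to *Col4a1* plus *Col4a2* was 0.690 ± 0.0192 (SD, n = 3) in DKO cells, so that transcripts of the common chains prevailed. It was 2.25 ± 0.0678 in IR, 1.89 ± 0.0382 in K1030R, 2.41 ± 0.0451 in the ∆CT line, and 1.502 ± 0.0361 in JMO cells. No basal library of 1 line overlapped with any of another line on this ratio, which is given as a description without a test. With the single *Col4a6* record the ratio was 0.573 in DKO cells and 1.93, 1.61, 2.08, and 1.24 in the other lines, in the same order. The sum of all type IV transcripts changed less, from 118 to 134 CPM per kb over the 5 basal lines with the single record.

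Within pairs the balance moved less than between them. The ratio of *Col4a1* to *Col4a2* per kilobase was 1.15 ± 0.0146 in DKO, 0.974 ± 0.0138 in IR, 1.098 ± 0.0396 in K1030R, 0.961 ± 0.00513 in the ∆CT line, and 1.05 ± 0.0249 in JMO cells. The ratio of *Col4a5* to *Col4a6* (both records) was 1.95 ± 0.0609 in DKO, 2.54 ± 0.0422 in IR, 2.41 ± 0.0441 in K1030R, 2.62 ± 0.0517 in the ∆CT line, and 1.87 ± 0.108 in JMO cells. The kidney-type chains *Col4a3* and *Col4a4* together made up at most 0.120% of type IV transcript per kilobase. *Col4a4* was called higher in IR (log2 fold change 1.20) and K1030R cells (1.22) from counts of 3 to 15.4 per library. Its log2 fold changes in ∆CT (1.11, adjusted p = 0.0524) and JMO cells (1.13, adjusted p = 0.0581) were close to these but not called by edgeR, and *Col4a3* was not called in any line against DKO.

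**Figure D3:**
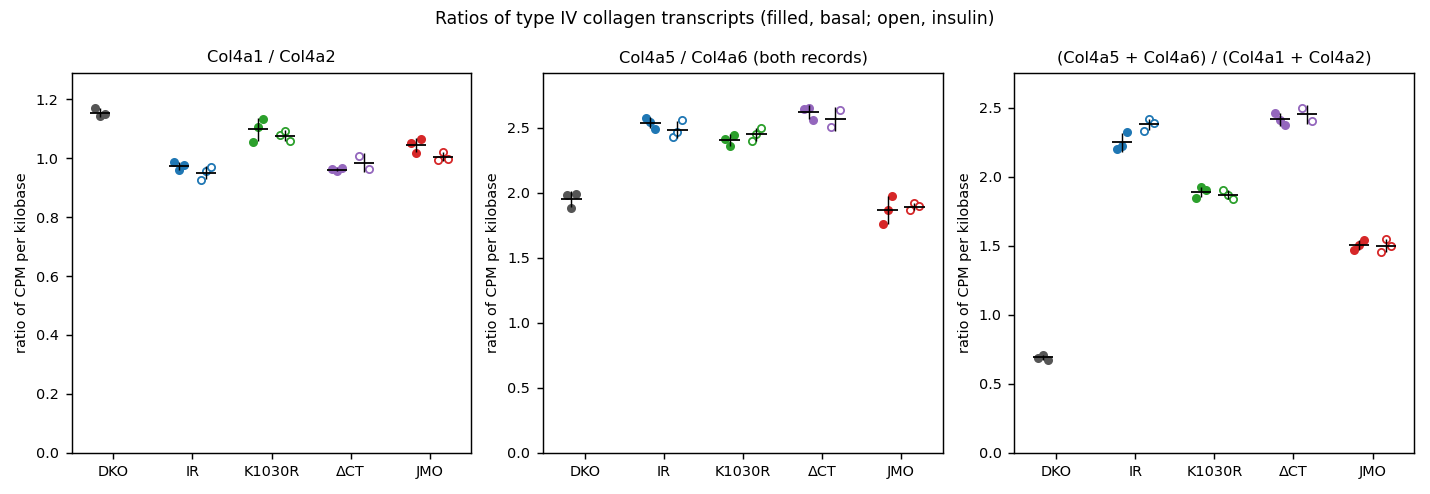
Ratios of type IV transcripts per kilobase in each library, with filled (basal) and open (insulin) points. Short horizontal lines are group means and vertical lines SD over 3 libraries, or 2 for ∆CT with insulin. The middle and right panels hold both *Col4a6* records. The ratio of *Col4a5* and *Col4a6* to *Col4a1* and *Col4a2* was below 1 in DKO cells (mean 0.690) and between 1.5003 and 2.45 in the group means of the receptor lines, with and without insulin.

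Of the short-chain collagens, *Col8a1* (ENSMUSG00000068196, chr16:57624258-57754737, minus strand) was abundant and nearly level. It ran from 669.8 to 703 CPM in DKO, 660.3 to 669.9 in IR, 597 to 618 in K1030R, 612 to 632 in the ∆CT line, and 581 to 629.8 in JMO libraries. In the fit, the log2 fold change against DKO was -0.04 ± 0.031 in IR cells (adjusted p = 0.292, not called), -0.17 in K1030R, -0.14 in the ∆CT line, and -0.16 in JMO cells, and these 3 were called although each is a small difference. Its partner chain *Col8a2* (ENSMUSG00000056174, chr4:126286793-126314330, plus strand) was rare. It had 4 to 15 counts in DKO libraries (0.403 CPM on average) and 18 to 43 counts in the basal receptor lines, where means were 1.84, 1.71, 1.28, and 1.44 CPM in IR, K1030R, ∆CT, and JMO cells. No DKO library overlapped with those of the receptor lines, and the log2 fold changes of 2.11 ± 0.29, 2.002 ± 0.30, 1.58 ± 0.31, and 1.75 ± 0.30 were all called. The type VIII chains thus did not move together.

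*Col18a1* (ENSMUSG00000001435, chr10:77052178-77166548, minus strand) encodes the collagen whose C-terminal fragment is endostatin. It had 10.1, 9.04, and 11.2 CPM in DKO libraries, against 14.8, 16.2, and 16.4 in IR and 14.6, 15.3, and 15.2 in K1030R. In ∆CT libraries it had 17.5, 15.0, and 17.8 CPM, and in JMO libraries 12.2, 12.2, and 11.5. Every receptor library was above the DKO libraries, with the JMO libraries closest to them. The log2 fold change was 0.63 ± 0.081 for IR, 0.56 ± 0.083 for K1030R, 0.72 ± 0.081 for ∆CT, and 0.24 ± 0.084 for JMO cells. The JMO call (adjusted p = 0.0267) was lost without DKO replicate 1 or 2 or JMO replicate 1 or 2, with adjusted p from 0.0671 to 0.167 by edgeR. *Col15a1* (ENSMUSG00000028339, chr4:47208161-47313167, plus strand), the close relative of *Col18a1*, had 48 counts in all 26 libraries together and 0 to 4 per library. It was at 0 in 2 libraries, reached at most 0.217 CPM, and was not tested.

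The anchoring collagens behaved differently from each other. *Col7a1* (ENSMUSG00000025650, chr9:108953586-108984875, plus strand) encodes the anchoring fibril chain made in skin by keratinocytes and fibroblasts. Its basal values were 116, 106, and 108 CPM in DKO, 147, 141, and 139.6 in IR, and 127, 129, and 122 in K1030R libraries. ∆CT libraries had 143, 131, and 134 CPM, and JMO libraries 94.7, 84.3, and 85.7. The JMO libraries were below, and the other receptor lines above, every DKO library. In the fit, the log2 fold change against DKO was 0.38 ± 0.055 in IR (adjusted p = 3.37e-06), 0.20 ± 0.056 in K1030R (0.00638), and 0.31 ± 0.056 in ∆CT (6.53e-05), but -0.32 ± 0.057 in JMO cells (0.000106, by edgeR). *Col7a1* was the only tested member called in opposite directions against DKO in different lines. Its exons hold the microRNA gene *Mir711*.

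*Col17a1* (ENSMUSG00000025064, chr19:47646344-47692094, minus strand) encodes a transmembrane collagen of hemidesmosomes and was rare. It had 13, 13, and 17 counts in DKO libraries (0.709 CPM on average), and means of 1.14, 1.52, 1.64, and 1.05 CPM in basal IR, K1030R, ∆CT, and JMO cells. The log2 fold change was 1.096 ± 0.25 in K1030R and 1.21 ± 0.25 in ∆CT cells, both called. The IR call (0.69 ± 0.26, adjusted p = 0.0272) was lost without DKO replicate 1 or 3 or IR replicate 1 or 2, with adjusted p from 0.0506 to 0.0794, and JMO cells were not called (0.57, adjusted p = 0.0916; edgeR). Of 5 epithelial markers only *Trp63* passed the filter, while *Krt5*, *Krt14*, and *Epcam* had no counts in 24, 25, and 24 libraries. The summed markers ran from 0.0568 to 0.360 CPM in DKO and from 0.408 to 1.43 CPM in the receptor lines, and their part in the values of *Col17a1* was not tested.

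Between receptor lines, the question was which part of the receptor a level followed. Against IR cells, JMO cells had 3 members higher and 4 lower (20.7% and 21.8% of all tested genes), and against ∆CT cells 3 higher and 4 lower (19.5% and 19.3%). Against K1030R cells they had 2 higher and 3 lower (17.4% and 18.0%). *Col4a1* was higher in JMO than in IR cells by 0.50 ± 0.035 on the log2 scale and *Col4a2* by 0.40 ± 0.039, *Col4a5* was lower (-0.27 ± 0.029), and *Col7a1* was lower (-0.69 ± 0.056). *Col18a1* was also lower in JMO than in IR (-0.39 ± 0.079), K1030R (-0.33 ± 0.080), and ∆CT cells (-0.48 ± 0.079).

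These were the members for which JMO libraries did not overlap with those of IR, K1030R, or ∆CT cells. The share of all tested genes separated in this way is not given here. Calls that rested on single libraries were *Col4a1* in JMO against K1030R cells (log2 0.09, adjusted p = 0.0376), lost without K1030R replicate 1 or 2 or JMO replicate 1 (0.0861 to 0.185), and *Col17a1* in JMO against ∆CT cells (log2 -0.64, adjusted p = 0.0267), lost without ∆CT replicate 2 or 3 or JMO replicate 2 (0.0572 to 0.108), by edgeR.

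Among the members called between the kinase-dead and the IR line, the type IV pair on chromosome 8 differed most. Against IR cells, K1030R cells had 3 members higher and 2 lower (13.9% and 16.3% of all tested genes). *Col4a1* (log2 0.41 ± 0.036), *Col4a2* (0.24 ± 0.039), and *Col4a6* (0.13 ± 0.035) were higher, and *Col8a1* (-0.13 ± 0.031) and *Col7a1* (-0.18 ± 0.055) were lower. The *Col7a1* call was lost without IR replicate 1 or K1030R replicate 3 (adjusted p 0.0691 to 0.0733, edgeR). ∆CT cells against K1030R cells had no member higher and 3 lower (1.49% and 1.95% of all tested genes), namely *Col4a1* (-0.52 ± 0.036), *Col4a2* (-0.33 ± 0.039), and *Col4a6* (-0.16 ± 0.035). No member was higher at an unadjusted p under 0.05 or by DESeq2 or limma TREAT either.

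The line without the C-terminal tail was compared with the full receptor last. ∆CT cells had 0 members higher and 2 lower than IR cells by edgeR (11.2% and 14.8% of all tested genes), with 1 higher at an unadjusted p under 0.05 and none by DESeq2 or limma TREAT. The lower ones were *Col4a1* (log2 -0.11 ± 0.036) and *Col8a1* (-0.10 ± 0.031). The first was lost without IR replicate 1 or 2, ∆CT replicate 1 or 2, or JMO insulin replicate 2 (adjusted p 0.0565 to 0.118), and the second without IR replicate 2 or ∆CT replicate 2 (0.0522 to 0.0615), by edgeR. The number called ran from 0 to 4 when single libraries were left out. A missing call does not show that the 2 lines had equal levels.

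After 15 min of insulin, *Col7a1* was called higher in 2 of the 4 receptor lines. It had 155, 174, and 156 CPM in IR cells with insulin, 149, 159, and 163 in K1030R, 174 and 166 in the ∆CT line, and 114, 97.4, and 104 in JMO cells. In each line all insulin libraries were above all basal libraries of that line. In the fit, the log2 fold change was 0.32 ± 0.055 in K1030R (adjusted p = 0.00703) and 0.32 ± 0.060 in ∆CT cells (0.00288), both called, and 0.18 ± 0.054 in IR (0.0815) and 0.25 ± 0.057 in JMO cells (0.0557), not called, by edgeR. The K1030R call was lost without K1030R basal or insulin replicate 3 (adjusted p 0.0714 to 0.0808), and the ∆CT call without ∆CT insulin replicate 1 (0.0944). The paper reports that insulin caused no receptor autophosphorylation in K1030R or JMO cells, and DKO cells were not sequenced with insulin. An action of insulin therefore cannot be told apart from other differences between the basal and insulin libraries, such as handling, and this was not tested.

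The counts of members called with insulin were small. In K1030R and ∆CT cells 1 of 9 members was called, against 0.156% and 1.01% of all tested genes. In IR and JMO cells none was called by edgeR (1.87% and 0.364% of all tested genes), with 3 and 1 at an unadjusted p under 0.05, and DESeq2 called 1 member in each and limma TREAT none. In a comparison that was chosen once the values were known, the mean insulin effect of the 4 lines was 0.27 ± 0.0283 (SE) for *Col7a1* on the log2 scale, with an adjusted p of 3.71e-07 by edgeR, a rise of 1.20-fold. There 1 member was higher and 1 lower (5.34% of all tested genes were called). The lower one was *Col4a1*, whose insulin libraries were below all basal ones in IR and JMO cells and overlapped with them in K1030R and ∆CT cells (log2 -0.06, adjusted p = 0.0433), a call lost when any 1 of 17 libraries was left out (0.05002 to 0.179).

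The insulin effect of *Col7a1* was not shown to differ between lines. Its difference from the IR line was 0.13 (95% confidence interval -0.025 to 0.29) for K1030R, 0.14 (-0.027 to 0.31) for ∆CT, and 0.067 (-0.095 to 0.23) for JMO cells on the log2 scale. Over all 9 members and these 3 differences edgeR called 0, with 1 at an unadjusted p under 0.05 and none by DESeq2 or limma TREAT. Of all tested genes 0.37%, 0.00649%, and 0.279% were called for K1030R, ∆CT, and JMO cells. For the abundant type IV chains and *Col8a1*, fitted log2 changes with insulin lay between -0.12 and 0.0019 in all 4 lines.

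**Figure D4:**
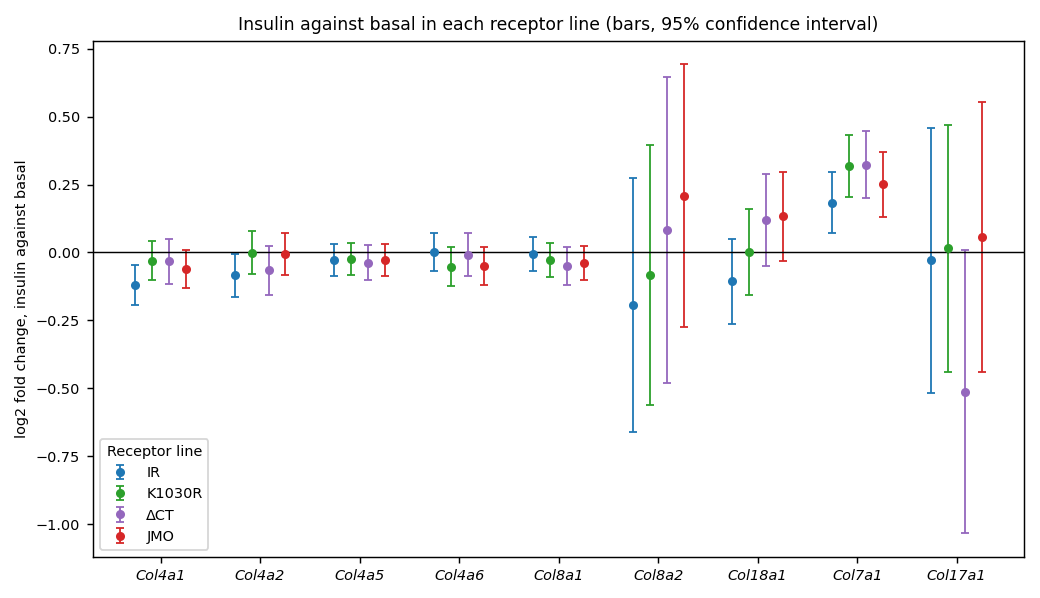
Log2 fold change of the 9 tested members with insulin against basal in each receptor line (points, edgeR fit) with unadjusted 95% confidence intervals (lines). *Col7a1* is the member with all 4 intervals above 0, with log2 fold changes of 0.18, 0.32, 0.32, and 0.25 in IR, K1030R, ∆CT, and JMO cells.

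The bases before the start of *Col7a1* are shown because it was the member called with insulin in single lines. In the window (RefSeq, GRCm38.p6, chr9:108953336-108953585, plus strand) capitals mark CCAAT on the opposite strand, whose match begins 249 bases before the start, and GGGCGG, which begins 61 bases before it. These matches are descriptions and not sites.
Upstream of Col7a1: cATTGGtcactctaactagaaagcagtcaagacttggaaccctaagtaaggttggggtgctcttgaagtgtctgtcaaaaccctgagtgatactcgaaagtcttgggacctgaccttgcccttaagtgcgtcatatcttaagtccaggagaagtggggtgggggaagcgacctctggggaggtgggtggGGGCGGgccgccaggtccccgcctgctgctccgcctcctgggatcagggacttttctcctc

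The lines were also compared on the insulin libraries, which are separate from the basal ones. JMO cells had 3 members higher and 3 lower than IR cells (40.2% of all tested genes were called), 1 higher and 3 lower than K1030R cells (38.4%), and 3 higher and 3 lower than ∆CT cells (33.1%). K1030R cells had 2 higher and 1 lower than IR cells (34.0%), and ∆CT cells 0 higher and 2 lower than K1030R cells (5.03%), with 1 higher at an unadjusted p under 0.05 and none by DESeq2 or limma TREAT. The log2 fold change of *Col7a1* in JMO against IR cells was -0.62 ± 0.055 with insulin, beside -0.69 without, and that of *Col4a1* in K1030R against IR cells was 0.50 ± 0.036, beside 0.41.

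∆CT cells with insulin had 1 member higher and 1 lower than IR cells with insulin (19.7% of all tested genes were called). *Col18a1* was higher (log2 0.31 ± 0.084, adjusted p = 0.00674) and *Col8a1* lower (-0.15 ± 0.035, adjusted p = 0.00204), and without ∆CT insulin replicate 2 both calls were lost (0.191 and 0.0547, edgeR). *Col18a1* was lower in JMO than in K1030R cells with insulin (-0.20, adjusted p = 0.0486), a call lost when any 1 of 19 libraries was left out (0.0507 to 0.135).

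Other parts of the basement membrane moved in both directions against DKO. Of 27 listed laminin, nidogen, perlecan, agrin, and related genes, 21 were tested. Of these, 10 were higher and 9 lower in IR (25.6% and 24.1% of all tested genes), 8 and 8 in K1030R (21.2% and 20.4%), 7 and 8 in the ∆CT line (23.4% and 22.9%), and 8 and 6 in JMO cells (16.9% and 17.4%). Among them 15 had a call in 1 direction shared by the IR, K1030R, and ∆CT lines. These comparisons share the DKO libraries, and the share of all tested genes with such shared calls is not given here. *Smoc2*, a matricellular calcium-binding protein, had the largest mean change of the list, from 6.48 ± 0.403 CPM in DKO to 62.3 ± 2.48 in IR cells (log2 3.26), 26.7 in K1030R, 40.9 in the ∆CT line, and 19.4 in JMO cells. *Lama2*, the laminin chain of muscle and nerve, had log2 fold changes of 2.42, 1.78, 1.67, and 1.19 in the same order, and *Nid2*, which links laminin to type IV collagen, 2.07, 1.22, 1.40, and 0.47. All of these were called.

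Of 18 listed genes for folding, modification, and export of collagen, 17 were tested. Of these, 11 were higher and 1 lower in IR cells (25.6% and 24.1% of all tested genes), 10 and 1 in K1030R (21.2% and 20.4%), 11 and 1 in the ∆CT line (23.4% and 22.9%), and 5 and 3 in JMO cells (16.9% and 17.4%). In JMO cells 9 of the 17 were not called. *Serpinh1*, the collagen chaperone HSP47, had 378 ± 17.3 CPM in DKO cells and log2 fold changes of 0.73, 0.65, 0.73, and 0.27. The prolyl 3-hydroxylases *P3h2*, which acts on type IV collagen, and *P3h1* were higher too. *P3h2* had log2 fold changes of 0.78 for IR, 1.07 for K1030R, and 0.89 for ∆CT cells and was also called in JMO cells, and *P3h1* had 0.65, 0.60, and 0.70 but was not called in JMO cells (0.08). *Mia2*, which takes part in loading large cargo at exit sites of the endoplasmic reticulum, was lower in all 4 lines (log2 -0.37, -0.25, -0.31, and -0.33).

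Of the receptors for these matrices, 9 of 11 listed were tested. Of these, 6 were higher and 1 lower in IR (25.6% and 24.1% of all tested genes), 6 and 1 in K1030R (21.2% and 20.4%), 5 and 1 in the ∆CT line (23.4% and 22.9%), and 4 and 2 in JMO cells (16.9% and 17.4%). *Itga10*, a collagen-binding integrin chain, was higher in IR (log2 1.53), K1030R (0.56), and ∆CT cells (0.64) and lower in JMO cells (-0.87), the same split of directions as for *Col7a1*. *Itga6*, a laminin-binding chain, was lower in all 4 lines (-0.58, -0.35, -0.85, and -0.30). *Ddr2*, a collagen receptor kinase, was higher in all 4 (0.47, 0.50, 0.49, and 0.16), and *Itgb1*, the integrin beta chain, in IR, K1030R, and ∆CT cells (0.24, 0.30, and 0.24) but was not called in JMO cells (0.08).

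The genes most like each member over the 26 libraries, by Pearson correlation of log2 CPM, are given as a description of 5 lines. Those of *Col4a1* were *Col4a2*, *Kcnab1*, and *Nes* (r = 0.99, 0.96, and 0.96), and those of *Col4a2* after *Col4a1* were *F2r* and *Cndp2* (0.97 and 0.96). *Col4a5* was like *Prex2* and *Adgrl2* (each r = 0.98), and *Col4a6*, after its identical record, like *Cx3cl1* (0.96) and *Hs6st2* (0.94). *Col7a1* was most like *Spry1*, *Artn*, and *Atf4* (0.95, 0.93, and 0.92). The other members were most like *Reep3* (*Col8a1*, 0.92), *Atp2b4* (*Col8a2*, 0.92), *Zfp703* (*Col18a1*, 0.91), and *Pold4* (*Col17a1*, 0.85). A record without a symbol had the same r with *Col17a1* and the same mean CPM (9.13) as *Pold4*.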

How the data were processed

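According to the study's methods, mRNA was captured with oligo-dT beads (KAPA mRNA HyperPrep) and sequenced as reverse-stranded single-end reads. The authors trimmed reads with fastp, quantified Ensembl mouse transcripts with kallisto, and converted these to gene values with tximport, and tool versions are not given in the sources used here. The deposited values are expected counts, neither filtered nor scaled, of which 79.9% were exactly whole.

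Libraries were grouped by their labels. Counts were rounded, genes with more than 0.5 CPM in at least 4 libraries were kept as in the study's methods, and TMM factors scaled the libraries. edgeR 4.0.16 under R 4.3.3 fitted 1 mean per group to all 26 libraries by quasi-likelihood, with robust dispersions. A difference was called at a Benjamini-Hochberg adjusted p under 0.05 over 15402 genes. For the filter, CPM are rounded counts over the library total. All other CPM are rounded counts over the total of the tested genes scaled by the TMM factor, given as mean ± SD. Log2 fold changes are given ± SE, and log2 CPM used a prior count of 2. The filter corresponds to about 8.61 to 12.3 counts, so lower levels rest on few reads. Replicate libraries varied beyond counting error (chi-square per degree of freedom 2.92 to 23.6 over 25 pairs). Coordinates and transcript lengths are those of GENCODE M21 on GRCm38, the build of the authors' transcripts, and promoter sequences those of RefSeq for GRCm38.p6, where all 10 members matched.

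The members and gene lists were chosen with earlier results of these data known. All members are named. Of each other list, up to 4 genes are named, those with the largest mean change among genes with 1 direction of call against DKO in the IR, K1030R, and ∆CT lines. *Col4a3* and *Col4a4* are named as the remaining type IV chains. The 3 genes with the highest correlation were taken for each member among genes with a mean of at least 5 CPM. Some genes that these rules select are not reported here. Alternatives were RLE scaling, other filters, unrounded counts, minimum folds of 1.5 (edgeR, and limma 3.58.1 TREAT as in the study), DESeq2 1.42.0, a replicate block, models of only the groups compared, and each library left out. The procedure was tested on simulated data.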

Additional observations from a re-analysis of the deposited data

How the results depend on the processing

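Of 90 member calls, 0 reversed under 36 alternatives, 74 held under all 34 alternatives without a minimum fold, and 11 held under all 36. RLE scaling, unrounded counts, and summing *Col4a6* with its identical record (added after the values had been seen) changed 0 calls. Most differences between lines are smaller than 1.5-fold. With that minimum fold edgeR called 4, 4, 5, and 1 members in IR, K1030R, ∆CT, and JMO cells against DKO. In the same order, limma TREAT called 4, 3, 3, and 1. Both called 0 members between receptor lines, with or without insulin, and 0 for insulin in K1030R, ∆CT, and the mean of 4 lines. The share of all tested genes called at this minimum fold is not given here. With no filter on low counts, the number called was 0 for ∆CT against IR cells, and 1 each for insulin in IR, in JMO, and in the mean of 4 lines. With DESeq2 it was 1 in each of these 4 comparisons. In models of only the groups compared it was 0 for basal ∆CT against IR cells and 4 for ∆CT against K1030R cells with insulin. With a minimum of 10 counts it was 1 for the mean of 4 lines. Leaving out single libraries gave 0 to 4 for basal ∆CT against IR cells, 0 to 2 for the same lines with insulin, 0 to 1 for insulin in each of the 4 lines, and 1 to 2 for their mean. In the other line pairs counts stayed within 1.5 times. *Col7a1* was called for insulin in 4 alternatives in IR cells and 9 in JMO cells, and its mean effect stayed between 0.25 and 0.28 over 34 alternatives (adjusted p 2.192e-34 to 5.174e-06). Library numbers did not pair libraries across groups (residual correlation of equally numbered libraries: median -0.00111 over 100 pairs, -0.108 to 0.0959). A replicate block lost 1 of the 90 calls and gave 1 call for insulin in JMO cells. Depth limits *Col8a2*, *Col17a1*, and *Col15a1*, which had at most 43, 35, and 4 counts per library.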
